A study of Homo sapiens with 18 samples.

Results

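The 44 genes described here encode proteins of the lysosome, the acidic compartment in which cells break down proteins, glycans and lipids. They were taken by symbol from a list and were all listed in each of the 3 deposited gene tables, which hold 15543, 31585 and 32555 genes. The list, like the other pathway lists below, was chosen with earlier results of these data known. Its counts beside the shares of all genes are thus a description and no test of the set. By role they are 8 luminal proteases, 9 glycosidases and sulfatases, 5 genes for a lipase, a thioesterase and secreted cofactors, 7 membrane proteins, 3 genes for sorting receptors and the transcription factor TFEB, and 12 genes of the V-ATPase. The last comprise 5 genes of the membrane-embedded V0 sector, 5 of the cytosolic V1 sector and 2 accessory proteins.

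Poly(A) RNA was sequenced in 18 libraries from human cell lines, 3 in each of 6 groups. SW480-P is the parental SW480 colorectal carcinoma line, and SW480-LM3 was obtained from it through 3 rounds of selection by spleen injection. EV-XP-LX-2 and EV-XP-NID1-LX-2 are LX-2 hepatic stellate cells that took up control vesicles or vesicles containing nidogen 1 (NID1), a basement membrane glycoprotein, for 48 hours. LV5-NID1 is SW480 overexpressing NID1 and kept for 72 hours with GW4869, which blocks neutral sphingomyelinase and so the release of small vesicles. LV5 is the SW480 control. Whether LV5 was treated with GW4869 too, what the letters XP stand for and whether a line is a single clone are not stated in the labels. Nor do they say whether libraries of a group came from separate cultures, so p-values reflect the spread between libraries alone, and that spread may be technical.

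Lysosomal hydrolases are made in the endoplasmic reticulum, and many are tagged with mannose 6-phosphate in the Golgi, bound by M6PR or IGF2R and carried to endosomes. The V-ATPase pumps protons into the lumen: its V1 sector hydrolyses ATP and its V0 sector conducts the protons. The transcription factors TFEB, TFE3 and MITF bind a short element with an E-box at its centre, known as CLEAR, in the promoters of many lysosomal genes, and are held in the cytoplasm by mTORC1 at the lysosomal surface when nutrients are plentiful. In hepatic stellate cells lysosomes degrade internalized matrix and stored lipid, and in colorectal carcinoma lines secreted cathepsins are studied as proteases of invasion.

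Levels in the SW480-P and SW480-LM3 libraries are a CPM-like signal, which is not divided by transcript length. So there only levels of the same gene are compared, apart from sums and the rank correlations below. The other tables give TPM, which is divided by length. Each table was normalized separately. In each SW480-P library the signal summed to 1102964 to 1104681, and in each SW480-LM3 library to 899507 to 908688. Each SW480-P library held 15504205 to 18965163 recovered reads and each SW480-LM3 library 15531517 to 16586016, while for the TPM libraries depth is unknown. NID1 was 0.501 ± 0.129 (SD, n = 3) in SW480-P and 46.9 ± 2.21 in SW480-LM3 (CPM-like signal), 25.4 ± 0.5 and 20.8 ± 2.44 TPM in LX-2 with control and NID1 vesicles, and 0.02 ± 0.02 and 360 ± 16.6 TPM in LV5 and LV5-NID1. Over 14744 genes listed in all tables, group means ranked with a Spearman rho of 0.886 between SW480-P and LV5 but 0.694 between SW480-LM3 and LV5, and 0.713 between SW480-LM3 and LX-2 with control vesicles. It was 0.793 between SW480-P and SW480-LM3 and 0.794 between SW480-P and LX-2 with control vesicles. Only the value of 0.793 sets the CPM-like signal against itself, and the others set it against TPM. For the libraries labelled SW480-LM3, change under selection and another cell origin cannot be told apart. The epithelial marker EPCAM was 95.6 ± 1.56 in SW480-P and 412 ± 8.21 in SW480-LM3 (CPM-like signal) but 5.03 ± 0.75 TPM in LV5, where the keratin KRT8 was 780 ± 17.2 TPM and the intestinal factor CDX2 only 0.177 ± 0.0473 TPM. LX-2 with control vesicles carried the collagen COL1A1 at 203 ± 4.16 TPM, while LRAT, the enzyme that stores retinol in quiescent stellate cells, was 0.01 ± 0.0173 TPM and desmin was not listed.

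Macrophages are rich in lysosomes, so their markers were read beside these genes. Of 10 macrophage and leukocyte markers 2, 8 and 9 were listed in the 3 tables. They summed to 1.75 to 2.71 in SW480-P libraries and 15.1 to 17.1 in SW480-LM3 libraries (CPM-like signal), and to 4.08 to 6.04 TPM over all LX-2 libraries. In LV5 and LV5-NID1 libraries their sums were 1.30 to 1.98 and 0.89 to 1.41 TPM. Their part in the results was not tested. The leukocyte phosphatase PTPRC, which marks all white blood cells, was at 0.0367 ± 0.0635 TPM or less in the LX-2 and LV5 tables and not listed in the SW480-LM3 table.

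Several of these genes carry the core of the CLEAR element, and its sequence context is shown here for the members with values below. Promoter windows of 300 bases (250 before to 50 after the RefSeq start, GRCh38.p14) were available for 35 of the 44 genes. The 8-base core TCACGTGA was found in 7 of these 35 (20.0%), against 1.04% of all 27305 promoters in the table and 1.46% of those of protein-coding genes. The shorter E-box CACGTG, which lies inside that core, was found in 10 of the 35 (28.6%), against 7.43% of all promoters. Both read the same on either strand. CLEAR is known from the promoters of lysosomal genes, so these shares describe genes of that kind and are no independent result. The 30-base stretches below run 5′ to 3′ on the gene's strand, with the core or, in the last 3, the E-box in capitals.
GAA (chr17:80101493-80101522, plus strand): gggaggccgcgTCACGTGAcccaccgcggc
CTSA (chr20:45891298-45891327, plus strand): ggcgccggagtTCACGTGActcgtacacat
GALNS (chr16:88857104-88857133, minus strand): caggcaccgcgTCACGTGAcccgccgctgg
LAMP1 (chr13:113297199-113297228, plus strand): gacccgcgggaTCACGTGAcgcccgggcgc
MCOLN1 (chr19:7522571-7522600, plus strand): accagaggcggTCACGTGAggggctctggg
ATP6V0D1 (chr16:67481199-67481228, minus strand): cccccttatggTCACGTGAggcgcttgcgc
CTSD (chr11:1763957-1763986, minus strand): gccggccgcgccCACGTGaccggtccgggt
NEU1 (chr6:31862930-31862959, minus strand): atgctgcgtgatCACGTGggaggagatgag
ATP6V0B (chr1:43974891-43974920, plus strand): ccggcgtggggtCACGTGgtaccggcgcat
CLN3 also has the core, across its start. A match describes the letters in this window and shows no binding. Of the 10 genes with the E-box, 7 were called higher and 2 lower in SW480-LM3, 2 higher and 2 lower in LX-2 with NID1 vesicles, and 0 higher and 7 lower in LV5-NID1. Of the 25 genes without it, 16 were called higher and 9 lower in SW480-LM3, 8 higher and 10 lower in LX-2, and 0 higher and 10 lower in LV5-NID1, where CTSH was not tested. Over all genes tested 43.9% were higher and 43.9% lower in SW480-LM3, 17.8% and 24.6% in LX-2, and 7.27% and 9.32% in LV5-NID1. No difference between genes with and without the E-box was tested.

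**Figure D1:**
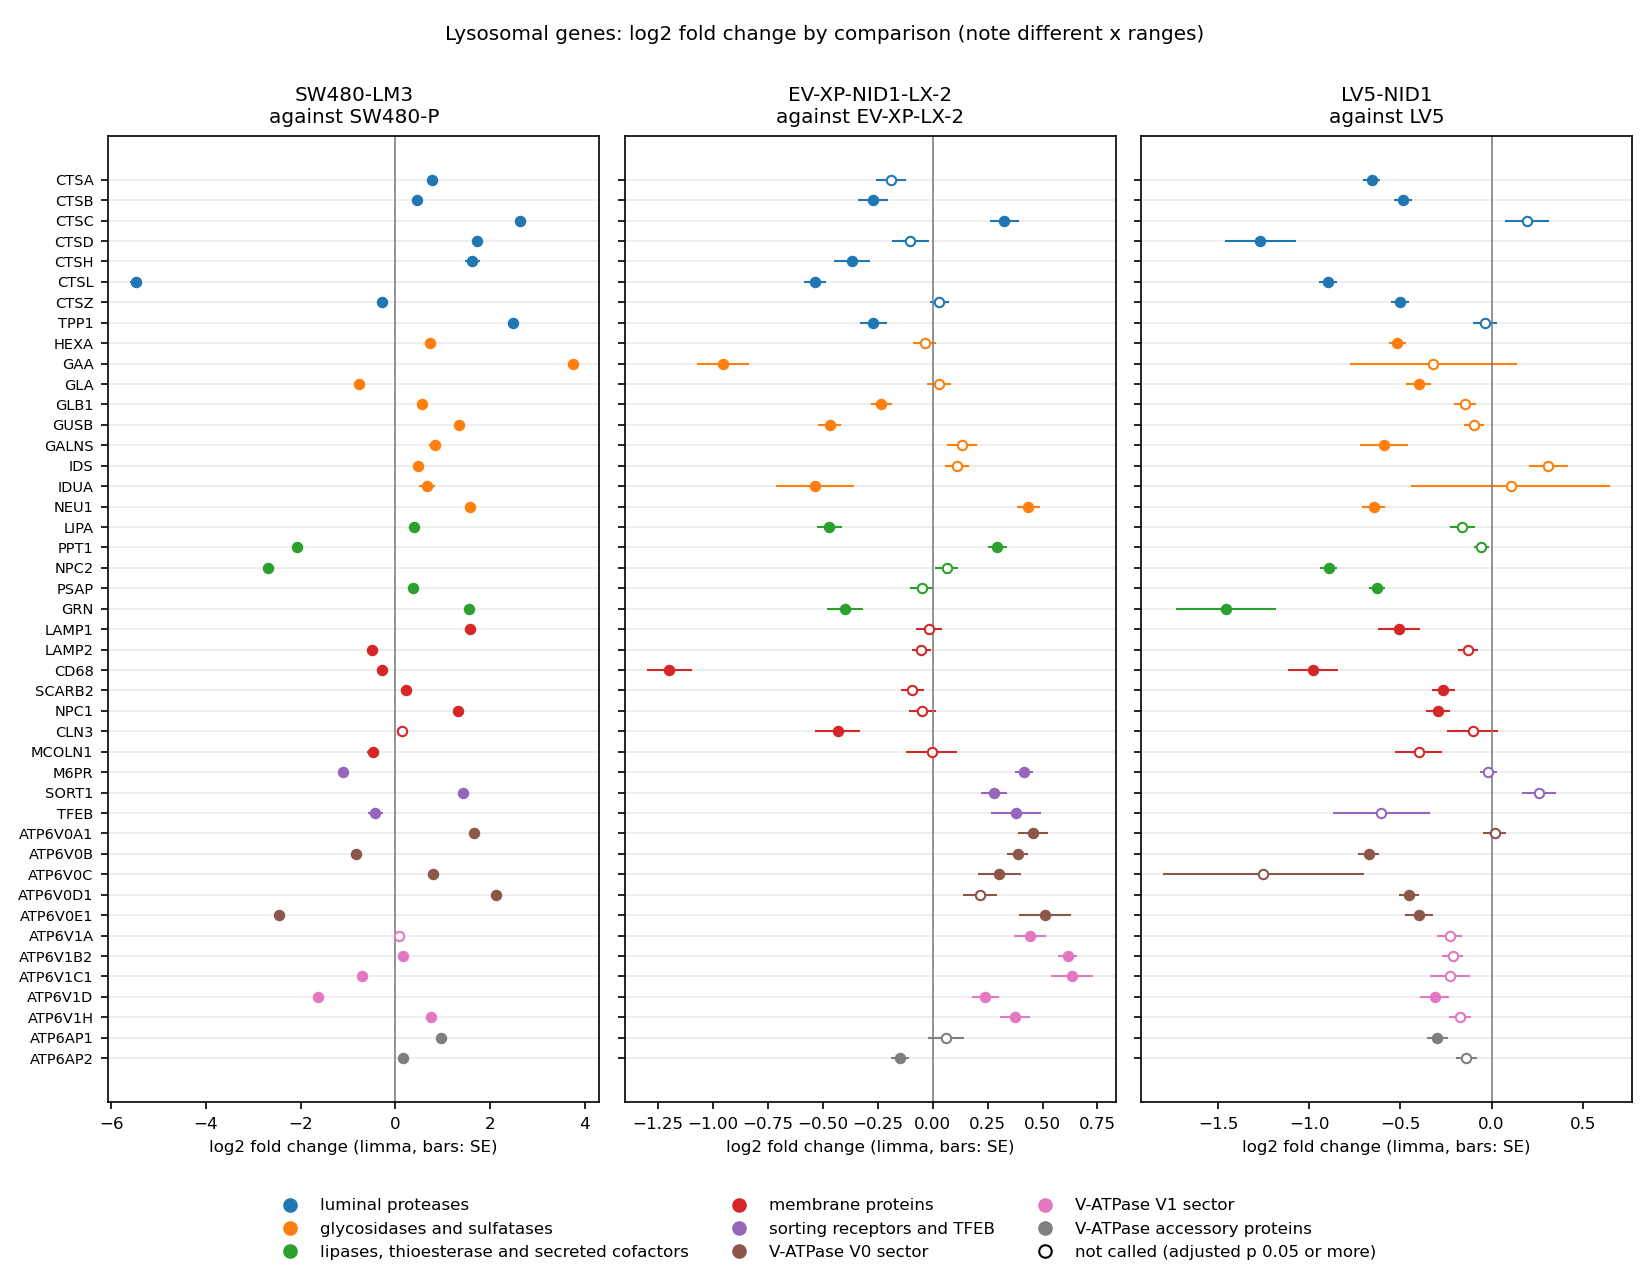
Log2 fold change (limma, x axis, a separate range in each panel) with its SE for the 44 lysosomal genes (y axis), coloured by role, with filled points at an adjusted p under 0.05. In SW480-LM3 points lie far to both sides of 0, in LX-2 the V-ATPase genes at the bottom lie to the right of 0 with the exception of ATP6AP2, and in LV5-NID1 every filled point lies left of 0.

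The first comparison asks how SW480-LM3 differs from SW480-P. The lysosomal set moved in both directions: most hydrolases among the 44 genes were higher, while cathepsin L, the cholesterol carrier NPC2 and the thioesterase PPT1 were much lower. Among 27 other lysosomal hydrolases and cofactors tested, 12 were higher and 10 lower. A gene was called at a limma adjusted p under 0.05. Of 44 genes 28 were higher and 14 lower, beside 43.9% higher and 43.9% lower among all 14527 genes tested. The median log2 fold change was 0.47, against -0.004 for all genes, and 13 genes rose and 6 fell by at least 1 on that scale. Genes with a change of that size made up 45.4% of all genes. With calls at 87.8% of all genes, being called says little here, and the sizes carry the description. The groups did not overlap at 43 of the 44 genes, beside 87.6% of all genes. Of 8 colon epithelium markers 7 were higher and 0 lower by limma, also at an unadjusted p under 0.05, and their sum was 3.72-fold higher, going from 3522 to 3789.6 in SW480-P to 13233 to 13946 in SW480-LM3 (CPM-like signal). As a share of each library's total signal, these markers went from a mean of 0.33% to 1.5%. Their part in the lysosomal result was not tested. Under library-total scaling the median of all genes was 0.26, and 30 members were higher and 10 lower.

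Among the luminal proteases 6 of 8 rose and 2 fell. CTSL, cathepsin L, an endopeptidase of the papain family, was 209, 231 and 229 in the SW480-P libraries and 3.95, 3.16 and 5.10 in the SW480-LM3 libraries (CPM-like signal). The groups were far apart, 223 ± 12 against 4.07 ± 0.975 (SD, n = 3), a log2 fold change of -5.48 (SE 0.11, limma adjusted p = 2.43e-15). The annotation names pseudogenes of CTSL, and of ATP6V0E1 and GUSB below, with which reads of these genes could be shared. CTSC, cathepsin C, which activates serine proteases by removing dipeptides, was 38.6, 41.5 and 41.9 in SW480-P and 266, 254 and 254 in SW480-LM3. It rose 6.34-fold, with a log2 fold change of 2.64 (SE 0.05, adjusted p = 6.88e-16). TPP1, a tripeptidyl peptidase whose loss causes a form of neuronal ceroid lipofuscinosis, was 25.1, 26.0 and 23.3 in SW480-P and 144, 144 and 143 in SW480-LM3, 5.8-fold higher. The aspartic protease CTSD rose from 84.0 ± 5.45 to 279 ± 3.79, 3.32-fold (log2 fold change 1.72, SE 0.05, adjusted p = 5.96e-14), and the carboxypeptidase and protective protein CTSA rose 1.71-fold. In the annotation CTSD shares 41.7% of its exon bases with a same-strand transcript, AC068580.4. CTSB, cathepsin B, a cysteine protease with both endopeptidase and dipeptidase activity, rose from 198.5 ± 6.58 to 271 ± 11.3. CTSH, an aminopeptidase, was called higher but at low levels, 0.392 ± 0.261 against 3.28 ± 0.478 (log2 fold change 1.63, limma adjusted p = 3e-07). CTSZ, a carboxypeptidase, fell from 147 ± 12.5 to 121 ± 4.39. The CTSZ call was lost with quantile normalization (adjusted p = 0.0543) and with library-total scaling (log2 fold change 0.02, adjusted p = 0.808). The summed signal of the 8 proteases rose 1.52-fold, from 783 ± 14.3 to 1192 ± 8.76. As a share of each library's total signal, their mean went from 0.071% to 0.132%.

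The glycosidases and sulfatases rose in 8 of 9 cases. GAA, acid alpha-glucosidase, which digests glycogen and is deficient in Pompe disease, was 8.61, 6.47 and 7.33 in SW480-P and 105, 116 and 116 in SW480-LM3 (CPM-like signal). It was 15.0-fold higher, the largest rise of the 44 genes on the log2 scale (3.75, SE 0.09, adjusted p = 1.56e-14). NEU1, the lysosomal sialidase, rose 3.13-fold from 12.6 ± 0.854 to 39.3 ± 1.07. GUSB, beta-glucuronidase, rose 2.57-fold from 31.7 ± 2.79 to 81.4 ± 2.66. The member that fell was GLA, the alpha-galactosidase deficient in Fabry disease, from 128 ± 1.63 to 74.7 ± 3.6.

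Of the lipase, thioesterase and cofactor genes 3 rose and 2 fell. PPT1, which removes palmitate from proteins, was 311, 335 and 333 in SW480-P and 76.5, 76.4 and 77.1 in SW480-LM3 (CPM-like signal). NPC2, which hands cholesterol to NPC1 in the limiting membrane, was 153, 153 and 148 in SW480-P and 23.0, 22.2 and 22.6 in SW480-LM3. In both genes the groups were well apart, by 4.26-fold and 6.69-fold. NPC1 itself moved the other way, from 19.9 ± 2.26 to 50.8 ± 1.93 (log2 fold change 1.32, SE 0.08, limma adjusted p = 6.86e-10). GRN, progranulin, a secreted glycoprotein cut into granulins in the lysosome, rose from 54.4 ± 3.63 to 163 ± 9.42, 2.99-fold. PSAP, the precursor of the saposins that help degrade sphingolipids, rose from 295 ± 11.2 to 385 ± 12.3. Its call was lost with GC and length trends removed, where the log2 fold change was -0.01 (adjusted p = 0.724).

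The heavily glycosylated membrane proteins LAMP1 and LAMP2, which line the lysosomal membrane, moved apart. LAMP1 was 109, 106 and 99.8 in SW480-P and 312, 315 and 309.9 in SW480-LM3 (CPM-like signal), 2.98-fold higher. LAMP2 was 139, 145 and 146 in SW480-P and 102, 99.99 and 104 in SW480-LM3, 1.4-fold lower (log2 fold change -0.48, SE 0.04, adjusted p = 3.02e-08). Neither gene's groups overlapped, but with GC and length trends removed LAMP2 was at 0.02 (adjusted p = 0.673). CD68, a sialomucin of macrophage lysosomes, fell from 20.8 ± 1.06 to 16.9 ± 1.62, a call lost with library-total scaling (adjusted p = 0.867). MCOLN1, a calcium channel of the lysosomal membrane, fell from 9.22 ± 1.23 to 6.31 ± 0.629, a call lost in the same way (0.108).

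The receptors that sort hydrolases moved in opposite directions. M6PR, the cation-dependent mannose 6-phosphate receptor, was 335, 343 and 345 in SW480-P and 164, 154 and 160.2 in SW480-LM3 (CPM-like signal), 2.14-fold lower. SORT1, sortilin, which carries prosaposin and progranulin among other cargo, rose from 42.3 ± 2.2 to 116 ± 1.77, 2.74-fold. IGF2R, the larger cation-independent receptor, rose from 29.5 ± 0.829 to 269 ± 7.15, 9.1-fold. IGF2R belongs to a list of 13 other genes of mannose 6-phosphate tagging and sorting, of which 12 were higher and 1 lower. TFEB was low, at 6.14 ± 1.31 and 4.32 ± 0.895 (adjusted p = 0.0245). That call was lost without SW480-P replicate 1 (0.133), without SW480-LM3 replicate 1 (0.129) and with library-total scaling (0.297). MITF, its relative, fell from 91.0 ± 6.51 to 0.458 ± 0.479 with a log2 fold change of -6.03 that ranged from -7.76 to -4.14 over the alternatives. RPTOR, the scaffold subunit of mTORC1, rose 4.57-fold from 12.7 ± 1.33 to 58.1 ± 6.49.

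Of 12 V-ATPase genes in SW480-LM3, 7 were higher (58.3%), 4 lower (33.3%) and 1 not called, beside 43.9% higher and 43.9% lower among all genes. ATP6V0E1, a small subunit of the V0 sector, was 345, 329 and 331 in SW480-P and 63.2, 59.4 and 57.8 in SW480-LM3 (CPM-like signal), 5.57-fold lower. ATP6V0D1, the V0 subunit that couples the sectors, was 40.2, 34.8 and 32.6 in SW480-P and 160.04, 161 and 156 in SW480-LM3, 4.43-fold higher. These subunits of 1 sector moved in opposite directions, each with groups well apart. The groups did not overlap at 87.6% of all genes in this comparison. ATP6V0A1, a large proton-channel subunit, rose from 17.4 ± 1.49 to 56.8 ± 2.53. In V1, ATP6V1D of the central rotor fell from 141 ± 6.04 to 45.1 ± 0.825. ATP6V1B2, a B subunit of the catalytic ring, was 114 ± 4.32 against 126 ± 2.1, a small rise, and the stator subunit ATP6V1H rose from 31.3 ± 0.507 to 53.2 ± 4.63. ATP6V1A, the catalytic A subunit, was 96.2 ± 7.35 against 101 ± 4.49 with overlapping libraries (95% interval of the log2 difference -0.04 to 0.20). ATP6V1A was called higher with library-total scaling (log2 fold change 0.36), with quantile normalization (0.16), with GC and length trends removed (0.54) and without SW480-P replicate 3 (0.14). The accessory proteins ATP6AP1 and ATP6AP2 rose 1.98-fold and 1.12-fold.

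**Figure D2:**
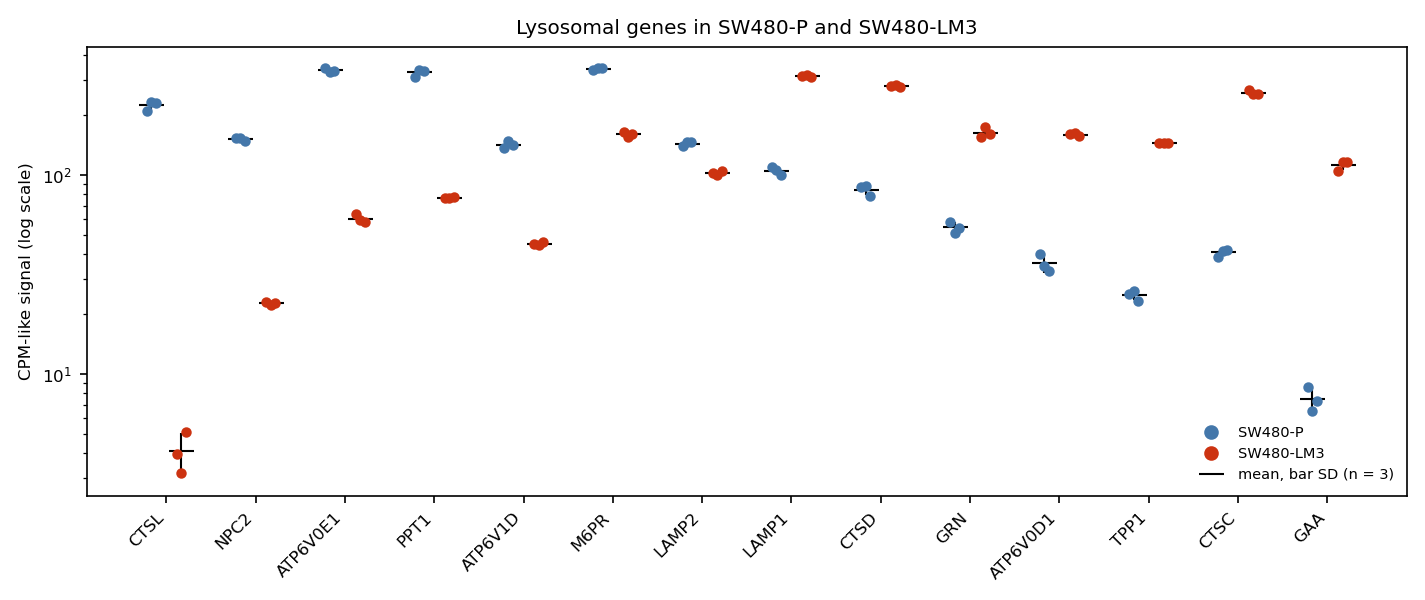
CPM-like signal (log axis) of 14 lysosomal genes in each SW480-P and SW480-LM3 library, with the mean and SD of 3 libraries. Genes on the left, from CTSL to LAMP2, were lower in SW480-LM3 and those on the right, from LAMP1 to GAA, higher, with no overlap between groups in any of the 14.

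The other genes of the pathway went both ways in SW480-LM3, with 51.2% of those tested higher and 36.6% lower. Among all genes tested 43.9% were higher and 43.9% lower. Of 27 other hydrolases and cofactors tested 12 rose and 10 fell, of 18 other membrane proteins and transporters 8 rose and 8 fell, and of 9 other V-ATPase subunits 3 rose and 5 fell. Of 15 genes of the TFEB family and lysosomal mTORC1, 7 rose and 6 fell. TPCN2, a two-pore cation channel of endosomes and lysosomes, rose from 6.28 ± 1.4 to 28.0 ± 2.15. CTSS, cathepsin S, an antigen-processing protease, fell from 10.1 ± 2.09 to 0.824 ± 0.395, and LAPTM4A, a lysosomal transmembrane protein, fell from 288 ± 13.3 to 81.6 ± 1.22 (CPM-like signal).

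The second comparison sets LX-2 cells with NID1 vesicles against LX-2 cells with control vesicles. Of 12 V-ATPase genes 9 rose, none of them an accessory protein. Several cathepsins and glycosidases and CD68 fell, while all 3 genes for sorting receptors and TFEB rose. Of 44 genes 15 were higher, beside 17.8% of all 15802 genes tested, and 13 lower, beside 24.6%. The V-ATPase accounted for 9 of the 15 higher and 1 of the 13 lower genes. The 32 other genes had 6 higher (18.8%) and 12 lower (37.5%). The median log2 fold change was 0.38 over the 12 V-ATPase genes, -0.05 over the other 32 and -0.05 over all genes. Median transcript GC content was 47.6% for the V-ATPase genes and 54.5% for the other 32. Removing GC and length trends added calls as higher for CTSD, CTSZ, GALNS, IDS, LAMP1, ATP6V0D1 and ATP6AP1. It added calls as lower for LAMP2 and SCARB2 and ended that of IDUA. The part of GC content in the difference between V-ATPase and other members was not tested. Sizes were modest: of the 44 genes only CD68 passed 1 on the log2 scale, beside 1.77% of all genes. The groups did not overlap at 32 of the 44 genes, beside 55.9% of all genes.

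All 5 V1 genes rose. ATP6V1B2 was 123, 125 and 122 TPM with control vesicles and 191, 183 and 195 TPM with NID1 vesicles. The groups did not overlap, and the rise was 1.54-fold (log2 fold change 0.61, SE 0.04, limma adjusted p = 0.000234). ATP6V1C1, a stator subunit that regulates assembly of the 2 sectors, was 77.1, 77.6 and 84.0 TPM with control vesicles and 111, 145 and 118 TPM with NID1 vesicles, 1.57-fold higher, with replicate 2 above the others. ATP6V1A was 24.6, 26.8 and 24.6 TPM against 37.3, 32.1 and 35.1 TPM, 1.37-fold higher without overlap (adjusted p = 0.00291). ATP6V1H rose from 52.3 ± 1.41 to 68.3 ± 5.66 TPM. ATP6V1D rose from 132 ± 4.78 to 156 ± 11.8 TPM, a call lost with quantile normalization (0.1) and when control replicate 2 (0.0669) or 3 (0.0648) was left out.

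Of 5 V0 genes 4 rose. ATP6V0B, a proteolipid of the proton-conducting ring and the most abundant of the 12 V-ATPase genes per length, was 286, 282 and 285 TPM with control vesicles and 384, 352 and 381 TPM with NID1 vesicles. The 2 sets of libraries were well separated, 1.31-fold (log2 fold change 0.39, SE 0.05, adjusted p = 0.00106). ATP6V0E1 was 189, 184 and 183 TPM against 233, 325 and 245 TPM, again highest in replicate 2. ATP6V0A1 rose from 37.2 ± 1.44 to 51.5 ± 3.84 TPM. ATP6V0C, the other ring proteolipid, was 180.5 ± 3.4 against 224 ± 32.4 TPM (adjusted p = 0.042). That call was lost in 9 of the alternatives, among them quantile normalization (0.111) and the omission of any library but EV-XP-NID1-LX-2 replicate 2 (0.0865 to 0.105). In the annotation 72.1% of ATP6V0C exon bases lie in same-strand transcripts of other genes. ATP6V0C pseudogenes are named there too, so its reads could be shared. ATP6V0D1 was 69.1 ± 1.68 against 80.7 ± 8.58 TPM (adjusted p = 0.0634), with no overlap.

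The accessory proteins did not follow. ATP6AP2, the prorenin receptor, was 179 ± 3.71 against 162 ± 2.74 TPM (log2 fold change -0.15, SE 0.04, adjusted p = 0.0215). That call was lost in 7 alternatives, among them median-ratio scaling (0.134) and the omission of any of the 3 control libraries or EV-XP-NID1-LX-2 replicate 1 (0.0592 to 0.0978). ATP6AP1 was 120 ± 4.55 against 125 ± 13.7 TPM, with overlap. Summed over the 12 genes, V-ATPase transcripts made up 1465 to 1473 TPM in the control libraries and 1847 to 1867 TPM in the NID1 vesicle libraries, 1.26-fold more. A list of 12 further subunits had 3 higher and 1 lower of 7 tested. It was led by ATP6V1G1, a stator subunit, which rose from 77.5 ± 4.66 to 137 ± 14.1 TPM (log2 fold change 0.81, SE 0.08, adjusted p = 0.000572).

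**Figure D3:**
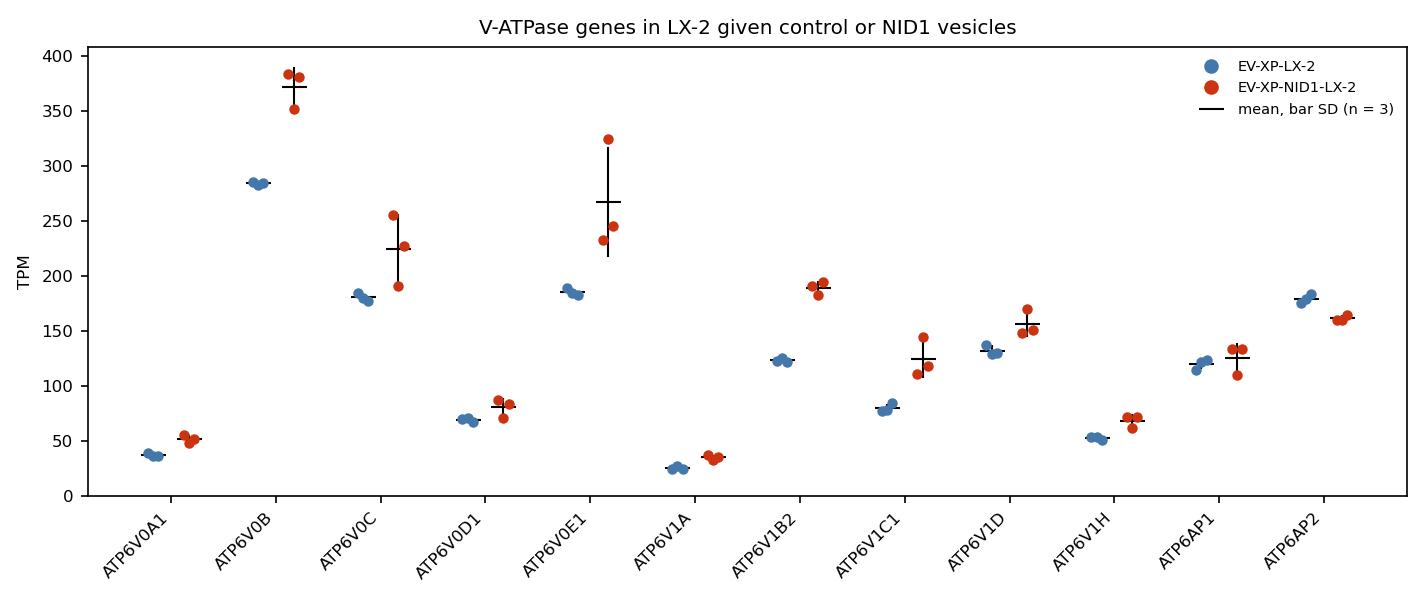
TPM (y axis, from 0) of the 12 V-ATPase genes in each LX-2 library given control or NID1 vesicles, with the mean and SD of 3 libraries. The NID1 vesicle libraries lie above the control libraries at all 5 V0 and all 5 V1 genes, ATP6AP1 overlaps, and ATP6AP2 is lower. At ATP6V0E1 and ATP6V1C1 the highest point is EV-XP-NID1-LX-2 replicate 2.

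Among the luminal proteases 1 rose and 4 fell in LX-2 with NID1 vesicles. CTSL, the most abundant protease by TPM, was 382, 365 and 378 TPM with control vesicles and 250.4, 249.6 and 275 TPM with NID1 vesicles. The groups did not overlap, a 1.45-fold fall (log2 fold change -0.54, SE 0.05, adjusted p = 0.000507). CTSB, CTSH and TPP1 were lower by 17.3%, 22.8% and 17.1%, the CTSB call being lost without control replicate 3 (adjusted p = 0.0552). CTSC rose from 39.0 ± 1.93 to 49.1 ± 3.14 TPM. CTSD was 237, 232 and 234 TPM against 242, 191 and 225 TPM and was not called (adjusted p = 0.363), with overlap and with replicate 2 lowest. With GC and length trends removed CTSD was called higher (log2 fold change 0.12, adjusted p = 0.0259).

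Of the glycosidases and sulfatases 1 rose and 4 fell. GAA was 13.4, 14.6 and 15.2 TPM with control vesicles and 7.25, 5.74 and 8.01 TPM with NID1 vesicles, 2.06-fold lower without overlap (log2 fold change -0.95, SE 0.12, adjusted p = 0.00114). GUSB fell from 105 ± 1.47 to 75.6 ± 4.21 TPM (adjusted p = 0.000785). NEU1 was the member that rose, from 99.6 ± 1.41 to 135 ± 7.29 TPM (log2 fold change 0.44, SE 0.05, adjusted p = 0.000951). HEXA, the alpha subunit of beta-hexosaminidase, was 174 ± 4.1 against 170 ± 9.12 TPM, with overlap. IDUA, which acts in heparan and dermatan sulfate breakdown, was 5.85 ± 0.644 against 3.80 ± 1.06 TPM (adjusted p = 0.0443). That call was lost in 10 alternatives, 5 of them the omission of any library but EV-XP-NID1-LX-2 replicate 1 (0.052 to 0.125).

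LIPA, the acid lipase that frees cholesterol and fatty acids from lipoproteins and stored esters, was 42.2, 41.9 and 40.8 TPM with control vesicles and 30.2, 28.1 and 31.1 TPM with NID1 vesicles. It was lower in every NID1 vesicle library (log2 fold change -0.47, SE 0.06, adjusted p = 0.00104). GRN fell from 392.5 ± 5.4 to 299 ± 34.4 TPM, with libraries of 325, 260.0 and 312 TPM (adjusted p = 0.00756). PPT1 rose from 181.5 ± 4.12 to 223 ± 6.2 TPM (adjusted p = 0.00197). PSAP, at 642 ± 3.65 TPM the most abundant of the 44 genes per length, was 621 ± 36.0 TPM with NID1 vesicles and overlapped.

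Of 7 membrane proteins 2 fell and 0 rose by limma, and at an unadjusted p under 0.05 the counts were the same. CD68 was 42.5, 42.6 and 46.0 TPM with control vesicles and 18.7, 15.8 and 21.2 TPM with NID1 vesicles, 2.35-fold lower without overlap (log2 fold change -1.20, SE 0.10, adjusted p = 0.000349). In the annotation 81.7% of CD68 exon bases are shared with a same-strand transcript, AC016876.2, so reads could be split between them. CLN3, a membrane protein mutated in juvenile ceroid lipofuscinosis, fell by 26.4%, a call lost without control replicate 1 (adjusted p = 0.0506). LAMP1 was 252, 251 and 254 TPM against 265, 229 and 256 TPM, and LAMP2 was 221 ± 4.91 against 214 ± 7.53 TPM. Both overlapped, and the 95% intervals of the log2 difference were -0.16 to 0.12 and -0.16 to 0.05. With GC and length trends removed LAMP1 was called higher (log2 fold change 0.11, adjusted p = 0.0145) and LAMP2 lower (-0.10, 0.0498), and LAMP2 was also lower with quantile normalization (-0.16, 0.0103). MCOLN1 was 21.6 ± 1.56 against 21.7 ± 3.33 TPM, with overlap.

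All 3 genes for sorting receptors and TFEB rose. M6PR was 213, 209.9 and 202 TPM with control vesicles and 274, 278 and 282 TPM with NID1 vesicles, 1.33-fold higher without overlap (log2 fold change 0.41, SE 0.04, adjusted p = 0.000537). SORT1 rose from 46.4 ± 1.37 to 56.6 ± 3.69 TPM. TFEB, the least abundant of the 44 genes in LX-2, was 1.69 ± 0.0436 against 2.51 ± 0.289 TPM (adjusted p = 0.0321). That call was lost in 7 alternatives, 5 of them the omission of any library but EV-XP-NID1-LX-2 replicate 2 (0.0562 to 0.101). Of 15 other genes of the TFEB family and lysosomal mTORC1 7 rose and 3 fell. They included LAMTOR3, a Ragulator subunit that anchors mTORC1, which rose from 54.0 ± 2.13 to 83.8 ± 5.17 TPM, and the folliculin partner FNIP2, which rose from 8.55 ± 0.161 to 12.9 ± 1.08 TPM.

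Other lysosomal hydrolases and cofactors had 2 higher and 15 lower of 29 tested. ARSA, the sulfatase deficient in metachromatic leukodystrophy, fell from 16.7 ± 1.02 to 8.51 ± 1.31 TPM. Other membrane proteins and transporters had 6 higher and 6 lower of 19. ABCA2, a lipid transporter of endosomes and lysosomes, fell from 24.6 ± 0.822 to 11.4 ± 0.682 TPM, and the potassium and proton channel TMEM175 was 13.2 ± 5.41 against 6.35 ± 2.56 TPM (adjusted p = 0.0458), with overlap and with the call lost without replicate 2 or 3 of either group (0.0792 to 0.135).

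EV-XP-NID1-LX-2 replicate 2 stood apart from its group. It was the lowest of its 3 libraries at 8 of the 8 lysosomal genes with a transcript GC content of at least 60% and at 28 of the other 36. Over all genes with a GC content of at least 60% its median deviation from the group mean was -0.167 on the log2 scale, beside 0.098 and 0.065 in replicates 1 and 3. Without it, 19 genes were called higher and 13 lower, 11 of 12 V-ATPase genes were higher, and 12 of the 32 others were lower. The stellate markers fell as well: of 8 tested, 4 were lower and none higher, their sum going from 2396 to 2568 TPM down to 1693 to 2006 TPM. Their part in the lysosomal result was not tested. In such bulk samples, a shift between cells of different kinds and a change of RNA per cell cannot be told apart.

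The third comparison sets SW480 cells overexpressing NID1, under GW4869, against LV5. Since treatment of LV5 is not stated, effects of NID1 and of GW4869 cannot be told apart here. Every role but that of sorting receptors and TFEB held genes that fell, and no gene was called higher. Of 43 genes tested 21 were lower, beside 9.32% of all 15508 genes tested, and 0 higher, beside 7.27%. At an unadjusted p under 0.05 in the same limma fit, 26 were lower and 2 higher. The median log2 fold change of the 43 was -0.31, against 0.006 for all genes. The groups did not overlap at 34 of the 43, beside 43.3% of all genes, and 2 of the falls passed 1 on the log2 scale, beside 1.42%. With quantile normalization 15 were lower and 0 higher, and the share of higher genes among all calls was 54.7% in place of 43.8%. Summed over the 44 genes, the level went from 4017 to 4113 TPM in LV5 to 2724 to 2867 TPM in LV5-NID1, or from 0.406% ± 0.00481 to 0.280% ± 0.0072 of all TPM. Of 4 colon epithelium markers tested 3 were lower and 1 higher, and the sum over the 9 listed went from 1633 to 1671 TPM in LV5 to 927 to 988 TPM in LV5-NID1, 0.585-fold. Their part in the lysosomal result was not tested. CTSH was under the low filter, at 0.237 ± 0.136 and 0.303 ± 0.117 TPM.

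The count changed with any library left out. It was 11, 11 and 13 without LV5 replicate 1, 2 or 3, 17 and 12 without LV5-NID1 replicate 1 or 2, and 27 without LV5-NID1 replicate 3. Over all genes, the 1445 called lower became 494 to 729 without an LV5 library, 1087 and 556 without LV5-NID1 replicate 1 or 2, and 2026 without LV5-NID1 replicate 3. That last library stood apart. It was the lowest of its group at 8 of the 8 lysosomal genes with a GC content of at least 60%, and at 7 of the other 36. Over all genes of that GC content its median deviation was -0.45, beside 0.297 and 0.17 in replicates 1 and 2. With GC and length trends removed 26 lysosomal genes were lower and 0 higher.

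**Figure D4:**
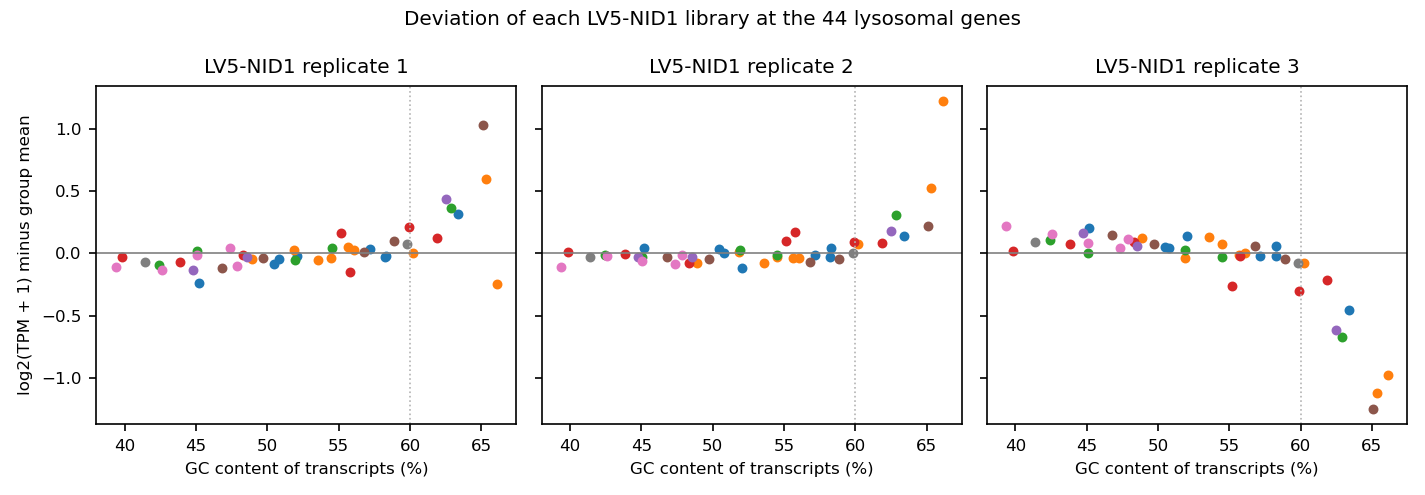
Deviation of each LV5-NID1 library from the group mean, on the scale of log2(TPM + 1) (y axis), against transcript GC content in percent (x axis) for the 44 lysosomal genes, coloured by role as in the plot of log2 fold changes; the dotted line marks 60%. In replicate 3 all 8 genes right of that line lie below 0.

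Of 7 luminal proteases tested 5 fell in LV5-NID1. CTSL was 214, 224 and 226 TPM in LV5 and 115, 119 and 122 TPM in LV5-NID1. The groups were well apart, 1.87-fold (log2 fold change -0.90, SE 0.05, limma adjusted p = 0.00065). CTSD was 131, 138 and 129 TPM in LV5 and 68.0, 60.1 and 39.5 TPM in LV5-NID1. All LV5-NID1 libraries were below all LV5 libraries, with replicate 3 lowest (log2 fold change -1.27, SE 0.19, adjusted p = 0.0118). That call was lost without LV5 replicate 1 (0.0539) or 2 (0.0558), and CTSD shares 41.7% of its exon bases with a same-strand transcript, AC068580.4. CTSA, CTSZ and CTSB fell by 36.9%, 29.6% and 28.7%. TPP1 was 55.2 ± 3.13 against 53.7 ± 2.74 TPM and CTSC 9.28 ± 0.181 against 10.9 ± 1.8 TPM, both with overlap.

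Of the glycosidases and sulfatases 4 of 9 fell. HEXA was 113, 111 and 117 TPM in LV5 and 80.4, 79.5 and 77.2 TPM in LV5-NID1, 1.44-fold lower without overlap (log2 fold change -0.52, SE 0.05, adjusted p = 0.00247). NEU1 fell from 31.8 ± 1.44 to 19.9 ± 0.651 TPM, 1.6-fold. GALNS, a sulfatase of keratan sulfate, and GLA fell by 36.1% and 24.4%, but GALNS lost its call in 7 alternatives, among them the omission of LV5 replicate 1 or 2 or LV5-NID1 replicate 1 or 2 (0.0731 to 0.114), and GLA without LV5 replicate 1, 2 or 3 or LV5-NID1 replicate 2 (adjusted p = 0.0587 to 0.0658). GAA was 8.99, 9.43 and 8.69 TPM in LV5 and 11.2, 10.6 and 2.68 TPM in LV5-NID1. Here replicate 3 alone lay below LV5 and the other 2 above it, and no change was called (adjusted p = 0.649).

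On the log2(TPM + 1) scale the largest fall among called genes was that of a secreted cofactor. GRN was 293, 323 and 303.5 TPM in LV5 and 143, 137 and 69.3 TPM in LV5-NID1, 2.63-fold lower (log2 fold change -1.46, SE 0.28, adjusted p = 0.0214). The groups were far apart, but the call was lost without LV5 replicate 1, 2 or 3 (0.0763, 0.0819 and 0.072), without LV5-NID1 replicate 2 (0.053) and with no low filter (0.0526). NPC2 was 238, 227 and 237 TPM in LV5 and 121, 128 and 128 TPM in LV5-NID1, 1.86-fold lower (log2 fold change -0.89, SE 0.05, adjusted p = 0.00065). PSAP, the most abundant of the 44 genes in LV5, was 675, 693 and 656 TPM in LV5 and 448, 430.4 and 427 TPM in LV5-NID1. Its mean went from 674 ± 18.4 to 435 ± 11.2 TPM, without overlap. PPT1 was 123 ± 1.09 against 118 ± 2.05 TPM and was not called.

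Of 7 membrane proteins 4 fell. CD68, scarce in LV5, was 4.31, 3.42 and 3.20 TPM in LV5 and 1.11, 1.64 and 1.31 TPM in LV5-NID1, 2.69-fold lower without overlap (adjusted p = 0.00929). LAMP1 was 218, 227 and 211 TPM in LV5 and 172, 164 and 127 TPM in LV5-NID1 (log2 fold change -0.51, SE 0.12, adjusted p = 0.0354). Its groups did not overlap, but the call was lost in 7 alternatives, 4 of them the omission of LV5 replicate 1, 2 or 3 or LV5-NID1 replicate 2 (0.0829 to 0.116). SCARB2, the receptor that carries glucocerebrosidase, and NPC1 fell by 17.2% and 18.9%, with calls lost in 9 and 8 alternatives, among them the omission of any library but LV5-NID1 replicate 3 (0.0787 to 0.133 and 0.0739 to 0.113). LAMP2 was 47.9 ± 2.31 against 43.7 ± 0.796 TPM and was not called (95% interval of the log2 difference -0.26 to 0.01). With GC and length trends removed LAMP2 was called lower (adjusted p = 0.0278). MCOLN1 was 14.7 ± 1.88 against 10.9 ± 1.45 TPM and was not called (0.0866).

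Of the sorting receptors and TFEB 0 of 3 were called by limma, and at an unadjusted p under 0.05 SORT1 was higher, at 11.6 ± 0.555 against 14.1 ± 1.58 TPM. M6PR was 102, 99.1 and 100.2 TPM in LV5 and 97.2, 97.3 and 103 TPM in LV5-NID1, with overlap (log2 fold change -0.02, 95% interval -0.13 to 0.10). TFEB was 7.22, 7.53 and 6.92 TPM in LV5 and 6.33, 5.11 and 2.52 TPM in LV5-NID1. Its groups did not overlap, but the spread within LV5-NID1 left it uncalled (adjusted p = 0.166).

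**Figure D5:**
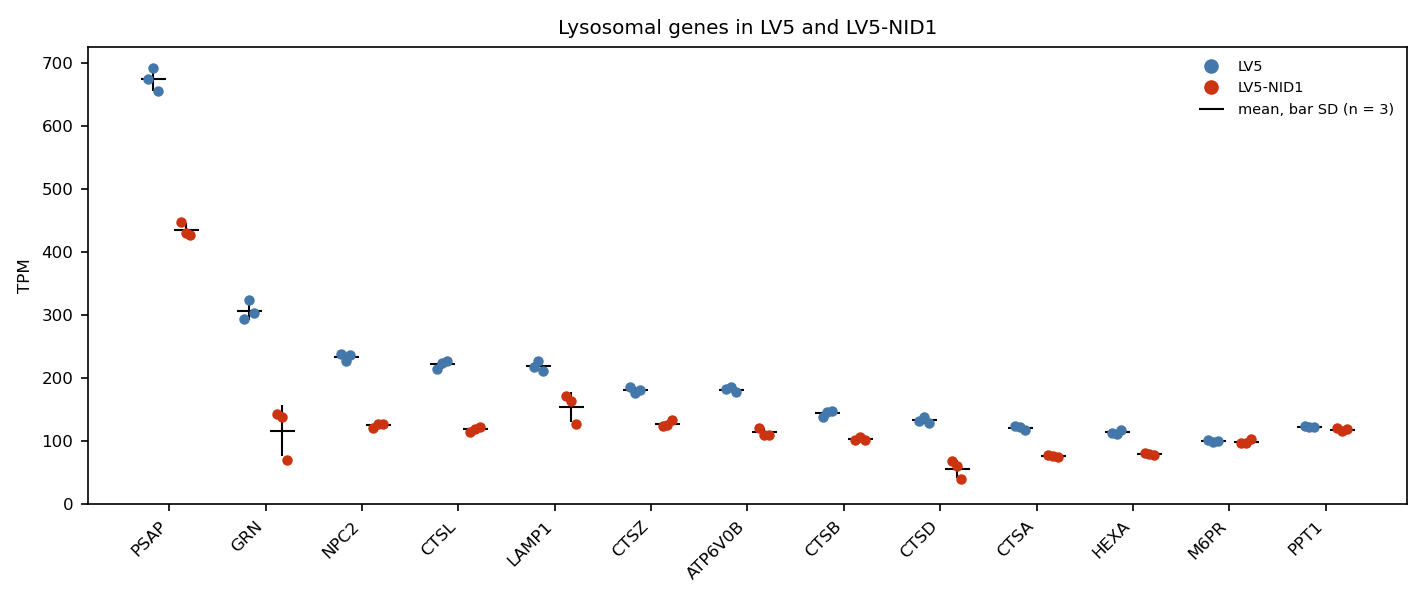
TPM (y axis, from 0) of 13 lysosomal genes in each LV5 and LV5-NID1 library, with the mean and SD of 3 libraries. PSAP, GRN, NPC2 and CTSL are far lower in LV5-NID1, M6PR overlaps and PPT1 differs by under 5 TPM on average, and the wide spreads of GRN, LAMP1 and CTSD come with a low replicate 3.

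Of the V-ATPase 5 of 12 genes fell in LV5-NID1, 3 of them in V0. ATP6V0B was 182, 186 and 177 TPM in LV5 and 121, 109.8 and 109.6 TPM in LV5-NID1, 1.6-fold lower without overlap (log2 fold change -0.67, SE 0.06, limma adjusted p = 0.00214). ATP6V0D1 fell from 64.8 ± 1.3 to 47.1 ± 2.27 TPM, and ATP6V0E1 from 180 ± 5.24 to 137 ± 13.2 TPM, the latter call being lost in 6 alternatives, among them the omission of LV5 replicate 1, 2 or 3 or LV5-NID1 replicate 2 (0.0737 to 0.0876). ATP6V0C was 92.3, 74.9 and 67.1 TPM in LV5 and 66.2, 37.3 and 12.8 TPM in LV5-NID1, and was not called (adjusted p = 0.166) although the groups did not overlap. Annotation places 72.1% of its exon bases in same-strand transcripts of other genes and names ATP6V0C pseudogenes.

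In V1, ATP6V1D fell from 92.6 ± 2.07 to 74.6 ± 7.6 TPM (adjusted p = 0.0472), a call lost in 9 alternatives, among them the omission of any library but LV5-NID1 replicate 3 (0.0834 to 0.136). ATP6V1A, at 28.95 ± 0.412 and 24.6 ± 1.9 TPM, was not called (adjusted p = 0.0708) but was lower without LV5-NID1 replicate 3 (0.0186). Of the accessory proteins ATP6AP1 fell from 76.7 ± 1.35 to 62.3 ± 3.3 TPM, a call lost in 7 alternatives, among them with GC and length trends removed (0.277) and without LV5 replicate 1, 2 or 3 or LV5-NID1 replicate 2 (0.0607 to 0.0883), and ATP6AP2 was 92.4 ± 1.94 against 83.9 ± 5.01 TPM. Without LV5-NID1 replicate 3, 10 of the 12 V-ATPase genes were lower.

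Among the other genes of the pathway, 11 of 27 other hydrolases and cofactors fell and 1 rose. SMPD1, acid sphingomyelinase, fell from 23.3 ± 1.59 to 11.02 ± 1.39 TPM (log2 fold change -1.02, SE 0.11, adjusted p = 0.00394). PLA2G15, a lysosomal phospholipase, fell from 11.6 ± 0.954 to 6.997 ± 1.64 TPM and CTSF, cathepsin F, rose from 23.3 ± 0.755 to 29.4 ± 1.63 TPM, calls lost in 6 and 5 alternatives, among them for either gene the omission of LV5 replicate 1, 2 or 3 or LV5-NID1 replicate 2 (0.0753 to 0.133). Of 9 other V-ATPase subunits 2 fell. ATP6V0A4, an isoform of the V0 a subunit known from kidney, went from 5.03 ± 0.0954 to 2.22 ± 0.0503 TPM. Of 13 genes for mannose 6-phosphate tagging and sorting, 0 were called by limma in either direction, and at an unadjusted p under 0.05 there were 1 higher and 2 lower.

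The 3 comparisons share no libraries. CTSL and CD68 were called lower in all 3. Of the members tested, 31.8% were lower in SW480-LM3, 29.5% in LX-2 and 48.8% in LV5-NID1. With 0 members called higher in LV5-NID1, no gene could be higher in all 3. The CD68 call in SW480-LM3 was lost with library-total scaling (limma adjusted p = 0.867), and that in LV5-NID1 with a replicate block (0.0501). CTSL was lower by 98.2% in SW480-LM3, 31.1% in LX-2 with NID1 vesicles and 46.5% in LV5-NID1. CD68 was lower by 18.9%, 57.5% and 62.9%. Of the 28 genes higher in SW480-LM3, 13 were lower in LV5-NID1, among them CTSD, GRN, LAMP1 and ATP6V0D1. Of the 14 lower in SW480-LM3, 8 were also lower in LV5-NID1. Among all 43 members tested in LV5-NID1, 48.8% were lower. Of the 21 lower in LV5-NID1, 4 were lower with NID1 vesicles in LX-2 (CD68, CTSB, CTSL and GRN) and 4 were higher there (ATP6V0B, ATP6V0E1, ATP6V1D and NEU1). Among all 44 members in LX-2, 29.5% were lower and 34.1% higher. No test of these differences between comparisons was made, since the tables were normalized separately.

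Per transcript length, levels in the control groups of the TPM tables spanned 1.69 to 642 TPM in LX-2 (median 122) and 0.237 to 674 TPM in LV5 (median 51.5). PSAP led both, followed by GRN. In LX-2 the order went on with CTSL at 375 ± 9.25, CTSA at 316 ± 9.38 and ATP6V0B at 284 ± 1.71 TPM, each above the next in every library. In LV5 it went on with NPC2 at 234 ± 6.45, CTSL at 222 ± 6.49 and LAMP1 at 218 ± 8.0 TPM, and the libraries of CTSL and LAMP1 overlapped. Over the whole order, 18 of the genes in LX-2 and 21 in LV5 overlapped the next one down. CTSH, at 41.6 ± 2.82 TPM in LX-2, was last in LV5, and TFEB, last in LX-2, was 7.22 ± 0.305 TPM in LV5.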

How the data were processed

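The members and pathway lists were chosen with earlier results of these data known. Per the submitters' processing notes, HISAT2 2.1.0 and Bowtie2 2.3.5 were used; build, annotation and counting were not given in the sources used here. The deposited SW480-LM3 table holds a CPM-like signal, 100% of whose values were whole multiples of their library's step within 0.05 read; edgeR 4.0.16 on those reads called 6309 genes higher and 6378 lower. The other deposited tables hold TPM. Each table was fitted alone with limma 3.58.1 and a variance trend on log2(value + 1), over genes that reached 1 in 3 or more libraries, with Benjamini-Hochberg adjustment over all of them. Fold changes on this scale understate changes of low genes. Locations, GC content and overlaps came from GENCODE v29, and promoters from RefSeq (GRCh38.p14). Named in each comparison were called members whose log2 fold change reached 1 in size, those with the smallest adjusted p per role and direction, the most abundant member per role and 8 members throughout, plus up to 3 called pathway genes per direction with a mean of at least 10 (signal) or 5 (TPM). Other members named were chosen after their values were seen. IDS has 2 identifiers in the signal table, and the one shared with the TPM tables was used.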

Additional observations from a re-analysis of the deposited data

How the results depend on the processing

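The single-gene results kept their direction and side of the threshold in 908 of 948 checks of the SW480-LM3 comparison, 720 of 848 of the LX-2 comparison and 667 of 796 of the LV5 comparison; 5, 22 and 16 changed sign. With a log2 fold change of at least 1 required, 13 members were higher and 6 lower in SW480-LM3; in LX-2 0 were higher, 0 of the V-ATPase, and 1 lower, outside the V-ATPase; in LV5-NID1 2 were lower, both outside the V-ATPase. Without 1 library in turn, SW480-LM3 had 28 to 29 higher and 13 to 14 lower. LX-2 had 12 to 19 higher, 7 to 11 of them V-ATPase, and 10 to 13 lower, 10 to 12 of them other genes. LV5-NID1 had 0 higher and 11 to 27 lower, 9 to 17 of them outside the V-ATPase. The LV5 calls over all genes, 1127 higher and 1445 lower, went to 521 and 1011 with no low filter. Precision is limited by 3 libraries a group and, in the TPM tables, by an unknown depth.

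Same-numbered libraries deviated from their group means with correlations of -0.047 to 0.063, so number was not taken to pair libraries. With a replicate block 28 members were higher and 14 lower in SW480-LM3, 14 and 12 in LX-2, and 0 and 13 in LV5-NID1; over all genes the block left 233 higher and 657 lower in LV5-NID1. Among the calls it ended there was that of CD68 (adjusted p = 0.0501).

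The following log2 fold changes changed sign, and the cause was not tested. With GC and length trends removed, in SW480-LM3 they were -0.01 for PSAP, 0.016 for LAMP2 and -0.306 for CLN3; in LX-2 0.118 for CTSD, 0.031 for HEXA, 0.069 for PSAP, 0.114 for LAMP1 and 0.177 for MCOLN1; in LV5-NID1 0.136 for GAA, 0.085 for CLN3 and -0.006 for ATP6V0A1. With library-total scaling CTSZ was 0.015 in SW480-LM3. With median-ratio scaling, in LX-2, HEXA was 0.021, PSAP 0.008, LAMP1 0.041, LAMP2 0.006, NPC1 0.011 and MCOLN1 0.051. With quantile normalization CLN3 was -0.019 in SW480-LM3. In LX-2 it gave -0.062 for the median of the 44 genes, -0.087 for CTSZ, -0.037 for NPC2 and 0.104 for MCOLN1. In LV5-NID1 it gave 0.043 for TPP1, 0.049 for PPT1 and 0.07 for M6PR. Rescaled without mitochondrial genes, the LX-2 median was -0.023, CTSZ -0.006 and GLA -0.008, and ATP6V0A1 was -0.003 in LV5-NID1. A pseudocount of 0.1 gave -0.123 for IDUA in LV5-NID1.

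Leaving out 1 library at a time changed the sign of other small values. In LX-2 the median of the 44 genes ranged from -0.023 to 0.031, HEXA from -0.072 to 0.005, GLA from -0.017 to 0.069, LAMP1 from -0.061 to 0.046, NPC1 from -0.092 to 0.014 and MCOLN1 from -0.078 to 0.123. In LV5-NID1 TPP1 ranged from -0.079 to 0.005, GAA from -0.62 to 0.243, IDUA from -0.507 to 0.593, CLN3 from -0.21 to 0.047 and ATP6V0A1 from -0.022 to 0.043. Of all these sign changes, only CLN3 in SW480-LM3 and CTSD and LAMP1 in LX-2, each with GC and length trends removed, came with a call in the new direction.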
